A study of Mus musculus with 6 samples.

Results

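The genes of the DNA replication machinery were described in the mouse macrophage line RAW264.7, which can be turned into bone-resorbing osteoclasts with the cytokine RANKL. They were chosen as the rows of the deposited table whose KEGG annotation includes DNA replication (ko03030), and 35 of 11031 rows met that rule. RNA sequencing covered 6 samples at day 3, 3 untreated (Ctrl) and 3 stimulated with RANKL, and nothing in the labels says whether the samples of a group came from separate cultures. Ctrl and RANKL were not compared here: the table heads its library columns with letters that no label explains, and the authors' own fold changes and p-values were not used. The values below are therefore the identity, mean level, promoter sequence and annotation of the 35 genes.

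Replication starts at origins that were loaded with the MCM helicase, which unwinds the double helix. DNA polymerase alpha with its primase lays down short primers, and polymerases delta and epsilon extend them while the sliding clamp PCNA, placed by replication factor C, holds them on the template. Replication protein A coats the exposed single strands, and flap nucleases, ribonuclease H and DNA ligase remove the primers and join the fragments. Much of this gene set is known to be switched on together before S phase by the E2F transcription factors.

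Sequences before the start sites of Mcm5, Mcm6 and Pola1 are shown because E2F factors are textbook regulators of this gene set and these stretches hold words of the E2F type outside annotated exons. The stretches come from RefSeq promoter windows on GRCm38.p6 and are written 5′ to 3′ along the gene, with the matched words in capitals. Mcm5 is read from the plus strand at chr8:75109326-75109397, Mcm6 from the minus strand at chr1:128359715-128359845 and Pola1 from the minus strand at chrX:93632256-93632323.
Mcm5: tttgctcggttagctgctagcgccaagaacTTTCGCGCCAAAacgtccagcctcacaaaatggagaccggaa
Mcm6: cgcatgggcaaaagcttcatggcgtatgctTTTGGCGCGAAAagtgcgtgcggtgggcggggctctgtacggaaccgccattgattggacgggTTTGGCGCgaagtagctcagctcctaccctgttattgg
Pola1: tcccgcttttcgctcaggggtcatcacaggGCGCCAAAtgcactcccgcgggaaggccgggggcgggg
In Mcm5 and in the first match of Mcm6 the word on one strand overlaps a word on the other, so the capitals run over 12 bases there, whereas Pola1 holds a single word on the opposite strand.

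Expression is given as the authors' mean level, 1 value per gene over the libraries of the table, on a log scale of FPKM (fragments per kilobase of transcript, scaled to sequencing depth) that was taken as log2. The header does not name a log scale, which was inferred, nor its base or an added constant. Differences of level are therefore left in log units. The mean runs over both conditions, and no spread was computed because the columns of single libraries were not used. Neighbours in the order of levels therefore cannot be separated from each other by these means alone. In RNA from a whole culture, fewer cells that express a gene and less RNA per cell also cannot be told apart. Percentiles are the rank of a gene among all 11031 rows, and they do not depend on the log base.

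Replication genes were expressed above the middle of the table. Their median level was 4.52, against 3.60 over all rows, and 29 of 35 lay above the median of all rows. The contrast was smaller against rows with any KEGG pathway, as all members have. The median of those rows was 3.98, and 60.7% of them lay below the members' median, against 69.7% of all rows. Above the 75 percentile, which 2758 of 11031 rows exceed by construction, there were 8 of 35 members, so the upper end of the table held no excess of them. Levels ran from 2.64 for Pole to 7.59 for Pcna, a range of 4.95.

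**Figure D1:**
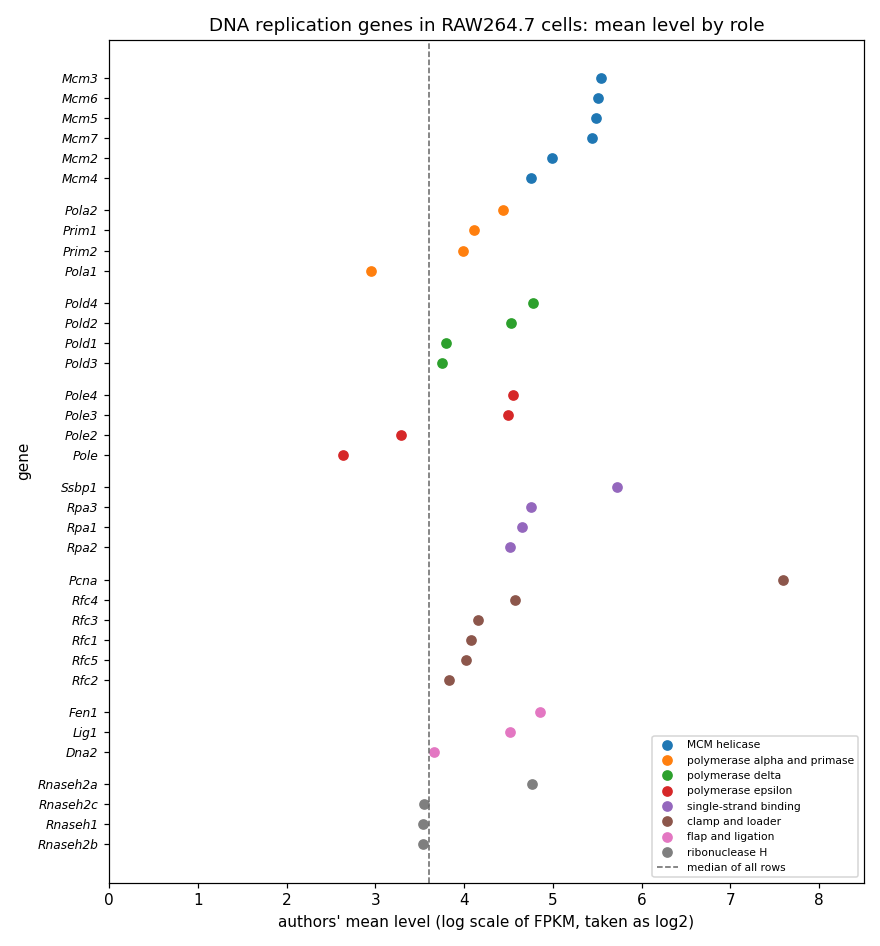
Authors' mean level of the 35 DNA replication genes (x axis, log scale of FPKM taken as log2), 1 point per gene, coloured by role; the dashed line is the median of all rows. Pcna (7.59) stands to the right of all other members. Of the members to the left of the dashed line at 3.60, Pole (2.64) and Pola1 (2.95) lie furthest from it.

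The MCM helicase genes were the most evenly high set. Mcm3 was at 5.55, Mcm6 at 5.51, Mcm5 at 5.49 and Mcm7 at 5.44, all between the 84.6 and 85.7 percentile of the table. Mcm2 (4.99) and Mcm4 (4.75) were lower. The 6 proteins form a ring with 1 copy of each, and their levels spanned 0.80 log units. Mcm7 shares 18.1% of its 50-base words with transcripts of other genes, mostly with Gm5487, and its transcribed region also hosts other annotated genes, so its value is less certain.

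Polymerase alpha and primase showed a wider spread. Pola1, the catalytic subunit, was at 2.95 (35.5 percentile), and its partner subunit Pola2 was at 4.44. The primase subunits Prim1, which is catalytic, and Prim2 were at 4.12 and 3.98. The set therefore ran over 1.48 log units, with the catalytic polymerase at the low end.

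Polymerase epsilon, which extends the leading strand, had the same layout with a larger range of 1.91. Pole, its catalytic subunit, had the lowest level of the 35 genes (2.64, 29.5 percentile), and Pole2 followed at 3.29. The small histone-fold subunits Pole3 and Pole4 were at 4.49 and 4.55. In polymerase delta, the main lagging-strand enzyme, the catalytic subunit Pold1 was at 3.80 and Pold3 at 3.75, neighbours in the order that cannot be separated. The accessory subunits Pold2 and Pold4 were at 4.53 and 4.78. Pold4 shares 21.7% of its 50-base words with the overlapping gene model AC109138.7 on the same strand. Pole2 shares 8.16% with transcripts of 133 other genes, among which Gm49384 shares the most. These 2 values are therefore less certain.

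Pcna, the sliding clamp, had the highest level (7.59, 97.1 percentile), at rank 326 of the table. The next member, Ssbp1, was 1.87 log units lower. Of the 50-base words of Pcna 19.1% also occur in the pseudogene Pcna-ps2, and the effect of that on its level was not tested. The 5 subunits of the clamp loader were closer together, with Rfc4 at 4.57, Rfc3 at 4.16, Rfc1, the large subunit, at 4.08, Rfc5 at 4.02 and Rfc2 at 3.83. The annotation gives Rfc2 and Rfc4 1 shared KEGG orthology entry and Rfc3 and Rfc5 another, while each of the other 31 members has an entry of its own.

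The subunits of replication protein A lay close to each other. Rpa3 was at 4.76, Rpa1, the large DNA-binding subunit, at 4.66 and Rpa2 at 4.52, a range of 0.24. Rpa3 shares 9.48% of its 50-base words with other genes, chiefly Gm6195. Ssbp1, which binds single-stranded DNA in mitochondria and not at the nuclear fork, was the second member in level (5.72, 87.5 percentile). Genes of mitochondrial replication outside the KEGG set were lower, with a median of 3.01 over 9 genes. Twnk, the mitochondrial helicase, was the highest of them at 4.08, and the polymerase gene Polg was at 3.00.

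Among genes that finish the lagging strand, the flap nuclease Fen1 was at 4.85, the ligase Lig1 at 4.52 and the helicase-nuclease Dna2 at 3.66, close to the median of all rows. Ribonuclease H genes were the lowest set, with a median of 3.54. Rnaseh2c (3.55), Rnaseh1 (3.54) and Rnaseh2b (3.53) were just under the median of all rows. Rnaseh2a, the catalytic subunit of ribonuclease H2, was at 4.77. Rnaseh2a shares 9.80% of its 50-base words with other genes, chiefly Gm49661, a gene model that overlaps it on the same strand.

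Across the members as a whole, level showed little rank correlation with transcript length, and no interval was computed. The rank correlation between the mean level and the longest coding transcript was -0.02 across the 35 genes, against -0.28 across 10892 rows with a matched length. Pole, the lowest member, has the longest transcript of the set at 7163 bases, and Pola1, the next lowest, follows with 5346 bases. Mcm6 with 4355 bases and Ssbp1 with 4398 bases were among the highest. The longest annotated transcript need not be the one expressed in these cells, and an effect of length on single members was not tested. Genes are not independent replicates, and FPKM is itself divided by length, so these values are descriptions.

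Other replication genes were compared on the same scale, from lists of textbook function. All 54 genes of 5 lists outside the E2F and RB factors had a row in the table, and their median level was 3.70. Origin recognition and licensing genes had a median of 4.14 over 12 genes, with the licensing factor Cdt1 at 5.22 and its inhibitor Gmnn at 5.40, but the loader Cdc6 at 3.01 and Orc1 at 2.19. Helicase activation genes were lower, with a median of 3.26 over 13 genes. There, Topbp1 (4.61) and the helicase subunit Gins4 (4.52) were high, and the kinase Cdc7 (2.34) and Ticrr (1.84) low. The GINS subunits, which form 1 complex, ran from 2.77 for Gins2 to 4.52 for Gins4. Fork protection genes and alternative loaders had a median of 3.04 over 9 genes, led by the fork protection subunit Tipin at 6.03, while its partner Timeless was at 3.04. Chromatin assembly and topology genes had a median of 4.64 over 11 genes, with the maintenance methyltransferase Dnmt1 at 5.76 and the topoisomerase Top2a at 5.54.

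**Figure D2:**
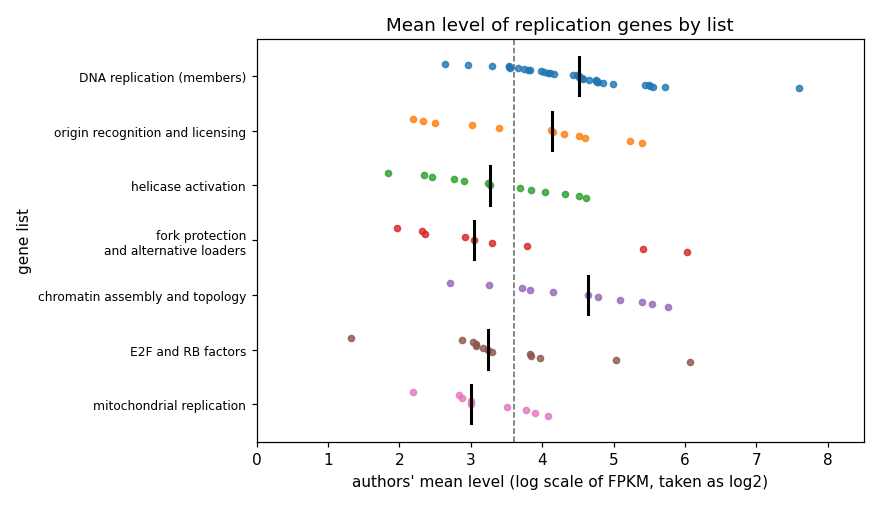
Authors' mean level (x axis, log scale of FPKM taken as log2) of the DNA replication genes and of 6 further lists, 1 point per gene; thick bars are list medians and the dashed line is the median of all rows. The member median of 4.52 lies between that of chromatin assembly and topology (4.64) and that of origin recognition and licensing (4.14), and the mitochondrial list is the lowest at 3.01.

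E2F and RB genes were all listed, and their levels were uneven. The dimer partner Tfdp1 was at 6.07 and E2f4, mainly a repressor, at 5.03. E2f1, an activator, was at 3.96, and the activators E2f3 and E2f2 were at 3.07 and 2.88. The pocket protein genes Rbl1, Rb1 and Rbl2 were at 3.83, 3.29 and 3.08. E2f7, an atypical repressor, was the lowest at 1.32.

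Promoter windows of 300 bases, from 250 before to 50 after each RefSeq start, were matched by symbol for 29 of the 35 members. Mcm4, Pole, Prim2, Rfc2, Rnaseh1 and Rnaseh2b had no window and are not described. The E2F words searched were TTTCCCGC, TTTGGCGC, TTTGCCGC and TTTCGCGC on both strands. A word was present in 11 of 29 members (37.9%), against 2.61% of 27018 genes with a window and 4.91% of 8603 other genes of the table. The difference between these shares was not tested, and a match is a run of letters rather than a bound site.

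Counted by word, TTTCCCGC was in 6 members, TTTGGCGC in 5, TTTCGCGC in 5 and TTTGCCGC in 0. Members with a word were Mcm3, Mcm5, Mcm6, Mcm7, Pola1, Pold1, Pold3, Pole2, Pole4, Rfc3 and Lig1. The helicase genes had it most often, in 4 of 5 with a window, and Mcm2 was the exception. Both ribonuclease H genes with a window and all 4 single-strand binding genes had none. Pcna and Fen1 had none either. Counted from the RefSeq start site, matches began at -153 and -149 in Mcm5, at -110, -106 and -47 in Mcm6, and at -138 in Pola1. The GENCODE annotation starts Mcm5 at 75109569 and Mcm6 at 128359664, further downstream than RefSeq. The Mcm5 window, which ends at 75109558, thus lies wholly before the gene in that annotation. In Mcm3, Lig1, Pold1, Pold3 and Pole2 the matches lay only after the RefSeq start site, and in Rfc3 and Mcm7 1 of 2 matches did. Before and after depend on the start used. Around the words before the start, 68 of 68 bases in Mcm7, 59 of 68 in Pole4 and 34 of 40 in Rfc3 lay in annotated exons. Lig1 is annotated in GENCODE from 13277283, before its window begins at 13278576.

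**Figure D3:**
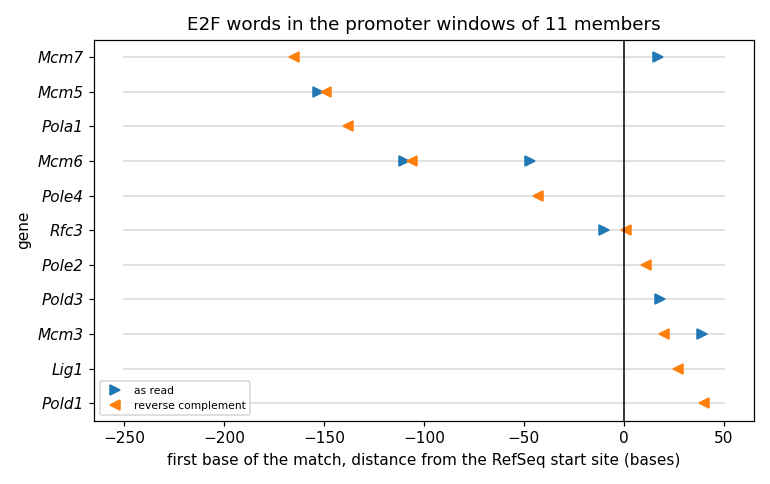
First base of each E2F word in the promoter windows of 11 members (x axis, bases from the RefSeq start site, drawn as a vertical line); right-pointing marks are words as read along the gene and left-pointing marks reverse complements. For Pole4, whose 2 windows overlap, 1 is drawn. Matches begin between -165 (Mcm7) and 40 (Pold1).

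The levels of members with and without such a word overlapped. The 11 members with a word had a median level of 4.52 and the 18 without one a median of 4.55, and both groups spread widely, from 2.95 to 5.55 and from 3.55 to 7.59. Other replication genes held E2F words as well, in 12 of 44 with a window (27.3%). Origin recognition and licensing genes had them in 6 of 11, and the E2F and RB list in 5 of 10. None of 8 mitochondrial replication genes with a window had one.

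Other short words were spread differently. The CCAAT word of NF-Y was found in 55.2% of members, against 41.1% of all genes with a window and 43.9% of other genes of the table. The GC box GGGCGG of SP1 occurred in 69.0% of members and 69.7% of other genes of the table, with 38.2% over all genes. TATAAA was found in 2 members (6.90%), against 8.43% of other genes of the table and 15.7% of all genes. The cell cycle word TTTGAA, part of the CHR element, was in 13.8% of members, 14.7% of other genes of the table and 20.2% of all genes. Words this short recur often in 300 bases, and these shares were not tested either.

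**Figure D4:**
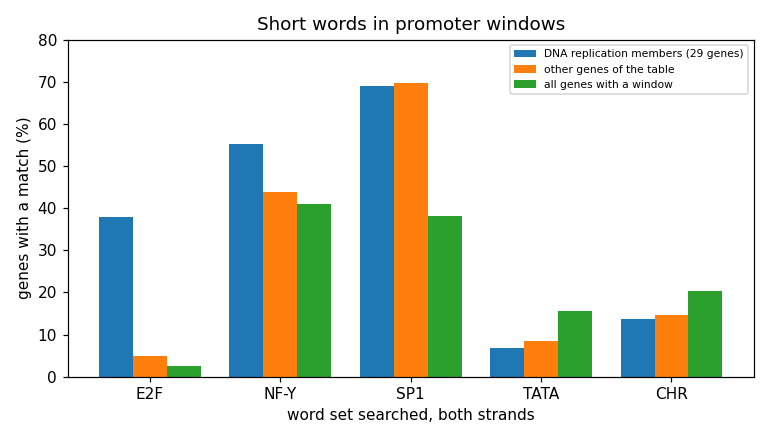
Percentage of genes whose promoter windows hold at least 1 match (y axis) for 5 sets of short words (x axis), in the members, the other genes of the table and all genes with a window. The members differ most from the others for the E2F words (37.9%, 4.91% and 2.61%), and are close to the other genes of the table for SP1 (69.0% and 69.7%).

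The members lie on 14 chromosomes in GRCm38, all annotated as protein-coding, and each level is that of a whole gene, with its isoforms combined. Pcna is on the minus strand of chromosome 2 from 132249162 to 132253314, and Pole on the plus strand of chromosome 5 from 110286306 to 110337474. A coding gene starting within 1000 bases upstream on the opposite strand was annotated for 5 of 35 members (14.3%), against 11.3% of 10850 other protein-coding genes of the table, a share close to that background. The partners were Prkdc for Mcm4, at 466 bases between the starts, Pxmp2 for Pole at 120, 4933430I17Rik for Pole3 at 301, Smyd4 for Rpa1 at 109 and Umad1 for Rpa3 at 115. Prkdc (1.83), Smyd4 (1.82) and Umad1 (2.83) were each lower than their replication partner. No level was found for Pxmp2 and 4933430I17Rik, and how often such partners are lower for other genes was not computed.

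KEGG assigns most of these genes to repair as well. Of the 35 members, 26 carried at least 1 further pathway and 20 at least 1 of the 4 pathways of nucleotide excision, mismatch, base excision and recombination repair. Nucleotide excision repair held 18 members, that is 51.4% of the members and 41.9% of the 43 rows of that pathway. Mismatch repair held 15 members (42.9%), which made up 68.2% of its 22 rows. Base excision repair held 11 members, and homologous recombination 8. Cell cycle held 7, the MCM genes and Pcna. The 9 members found only in DNA replication were Pola1, Pola2, Prim1, Prim2, Dna2, Rnaseh1, Rnaseh2a, Rnaseh2b and Rnaseh2c.

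Marker genes of the macrophage line, of osteoclasts and of other cells were looked up in the table. The row filter is not given, levels go down to 0.02, and the means pool Ctrl with RANKL. A row alone therefore says little about the state of the cells. All 7 macrophage genes had a row, from 4.45 for Adgre1 to 12.37 for Lyz2, and all 5 osteoclast genes did, from 0.45 for Calcr to 6.74 for Ctsk. None of 7 genes of epithelial, stromal, lymphoid, endothelial and cardiac cells had a row in the table.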

How the data were processed

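RNA from 3 Ctrl and 3 RANKL samples at day 3 was sequenced by the study, and 1 table of 11031 rows was deposited. The only measured column used is the authors' mean level of FPKM, inferred to be on a log scale and taken as log2. The submitters' notes name DESeq and mm10, and the methods DESeq2 and NovaSeq. Aligner, counter, annotation release and row filter: not given in the sources used here. A further 12 columns hold values of single libraries under letters absent from the labels. They entered no step, so depth is not given. The authors' 4 comparison columns (fold change, p-value, adjusted p-value, direction) were not used either. A planned test of counts between the groups was therefore not run, and no p-value was computed.

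Members were the rows with ko03030. All 35 were matched by Ensembl identifier to GENCODE M21 (GRCm38, the sequence of mm10) for position and transcripts. Shared sequence is the percentage of a gene's distinct 50-base words, over all its transcripts, that occur in transcripts of other genes. RefSeq promoter windows were searched for fixed words on both strands, and a gene with several windows counted once. For 29 of 35 member windows the last 40 bases lay in a transcript of the gene as read, and for 0 in reverse. The word search was checked only for finding words planted in simulated windows. Those windows were built so that no word could occur otherwise, so matches arising at random were not assessed. All members are named, and the members, lists and words were chosen with earlier results of these data known. Python 3.11.15, pandas 2.3.3 and scipy 1.17.1 were used.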

Additional observations from a re-analysis of the deposited data

How the results depend on the processing

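The number of members was 35 when KEGG identifiers were read whole and when only rows with an Ensembl identifier were counted. The members' median level exceeded 69.7% of all rows, 69.5% of rows with an Ensembl identifier, and 60.7% of the 4592 rows with any KEGG pathway, whose own median level was 3.98 against 3.60 over all rows. The share of members with an E2F word was 37.9%, and it was 34.5% with TTTCCCGC and TTTGGCGC only, against 1.80% of all genes, and 31.0% in the last 150 bases of the window, against 1.45%. Counted per window, a setting chosen after seeing the data, it was 34.3% against 2.27%. Other settings of a test on counts (size factors, no filter, DESeq2, leaving out each library) were not run, because no column per library could be matched to a sample. No paired analysis was possible because no label says which letter of the library columns is which group. Each level is a single mean with no spread here, and windows were missing for 6 members.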
